A study of Sus scrofa with 41 samples.

Results

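Collagens, laminins and fibulins are the structural proteins of the extracellular matrix. The genes described here were taken by symbol: every pig gene named COL with an A-numbered chain, LAMA, LAMB or LAMC with a number, or FBLN with a number. By this rule 55 genes of the Ensembl symbol table qualified, and 53 of them had a row among the 25880 genes counted. They comprised 11 fibrillar collagens, 7 basement membrane collagens, 11 laminin chains, 5 chains of collagen VI, 7 fibril-associated collagens, 8 transmembrane and other collagens and 4 fibulins. COL4A1 and COL19A1 had no row, and LAMA2, COL7A1, COL9A2, COL20A1 and COL26A1 had no symbol in that table, so none of these was analysed here. The type IV collagen of muscle was thus represented by its second chain and the laminin of muscle fibres by its beta and gamma chains.

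Fibrillar collagens assemble into the fibrils of the sheaths around muscle, fibre bundles and fibres, with types I and III as the main components and type V at the fibril core. Basement membranes line muscle fibres and capillaries as sheets in which a type IV collagen network and a laminin network are joined by other glycoproteins, collagen VI forms beaded microfibrils beside them, and fibulins link basement membranes and elastic fibres.

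The samples were psoas major muscle from 41 uncastrated male pigs, 13 Danbred Duroc and 28 Danbred Landrace. Per the study's methods, they ate from a feeder that admitted 1 pig at a time. Their feeding test ended on a live-weight limit combined with the viability of each pig. RNA-seq (polyA RNA) gave 1 library per pig, with 22188911 to 25954816 read pairs on genes. Each pig carried a feed conversion ratio (FCR), an RNA integrity number (RIN), a sampling age and a batch, which in the study's methods stands for slaughter day. The study's methods word FCR as growth over feed, but values of this size, all above 1, are those of feed over growth, so a low FCR is read here as an efficient pig. FCR was 1.83 to 2.18 in Duroc (median 1.94) and 1.92 to 2.25 in Landrace (median 2.1), and RIN was 7 to 8.8 (median 8.2) and 6.5 to 8.3 (median 8). Duroc pigs were 131 to 156 days old (median 148) and Landrace pigs 147 to 166 days (median 154.5), so the Landrace pigs were older and had the higher FCR at the median. Batch 1 held a single Duroc pig, and batches 2 to 5 held 3, 2, 3 and 4 Duroc and 12, 7, 2 and 7 Landrace pigs. Fast-fibre and slow-fibre troponins and myosin light chains were abundant in all libraries, with summed levels of at least 15108 counts per 1000000 counts (CPM) for the 3 fast-fibre genes and 1353 CPM for the 5 slow-fibre genes with a row.

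Of the 53 members, 32 had enough counts to be tested. The 21 others were sparse, and several chains had a median of 0 counts, among them COL2A1 of cartilage (0 to 410 counts per pig), COL9A1 (0 to 7), COL10A1 (0 to 2), COL25A1 (0 to 2), LAMB4 (0 to 6) and LAMC3 (0 to 4). COL4A3 (1 to 23 counts) and COL4A4 (0 to 8), the chains of the kidney and lung type IV network, overlap each other on chromosome 15 and were also too low to test, as were LAMA1 (0 to 13), LAMB3 (0 to 128) and COL6A5 (0 to 37). Low counts were likewise found for COL4A6 (1 to 30), COL9A3 (0 to 7), COL11A1 (2 to 549), COL11A2 (0 to 1360), COL22A1 (0 to 437), COL24A1 (3 to 43), COL8A2 (0 to 151), COL13A1 (4 to 109), COL17A1 (3 to 48) and COL28A1 (0 to 77). The highest counts of COL2A1, COL8A2, COL11A1, COL11A2, COL13A1, COL22A1 and COL24A1 came from a single pig.

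That pig, Landrace 22 (RIN 7.1, 160 days, FCR 2.17, batch 5), stood apart from the other 40. COL1A1, the alpha 1 chain of type I collagen, was at 9531 CPM there, against 151 to 2117 CPM (median 495) in the others, and its partner COL1A2 was at 2104 CPM against 55.9 to 724 CPM (median 196). Both chains were thus above the whole range of the other pigs, while COL3A1, the type III chain, was not: it had 418 CPM against 157 to 1562 CPM (median 652). Collagen chains known from cartilage, tendon and its junction with muscle were the most shifted, with 1360 counts of COL11A2 against at most 18, 437 of COL22A1 against at most 22 and 549 of COL11A1 against at most 41. Landrace 22 had the highest level of 17 of the 53 members, and for 7 of them it was more than 3 times the next pig. The shift was uneven within the classes. COL5A1, COL5A2 and COL5A3 were within the range of the other pigs, as were the basement membrane genes COL4A2, at 171 CPM (others 68 to 370), and LAMC1, at 93.7 CPM (others 73 to 176). COL18A1, at 24.9 CPM against at most 18.4, and LAMA3, at 2.22 CPM against at most 1.82, were above every other pig. Of 6 tendon marker genes, fibromodulin (FMOD) was at 365 CPM against at most 35.2, THBS4 at 322 against at most 61.3 and tenomodulin (TNMD) at 32 against at most 0.493, and the part of these in the results was not tested. For the main fibril chains, coefficients without this pig are therefore given as well.

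**Figure D1:**
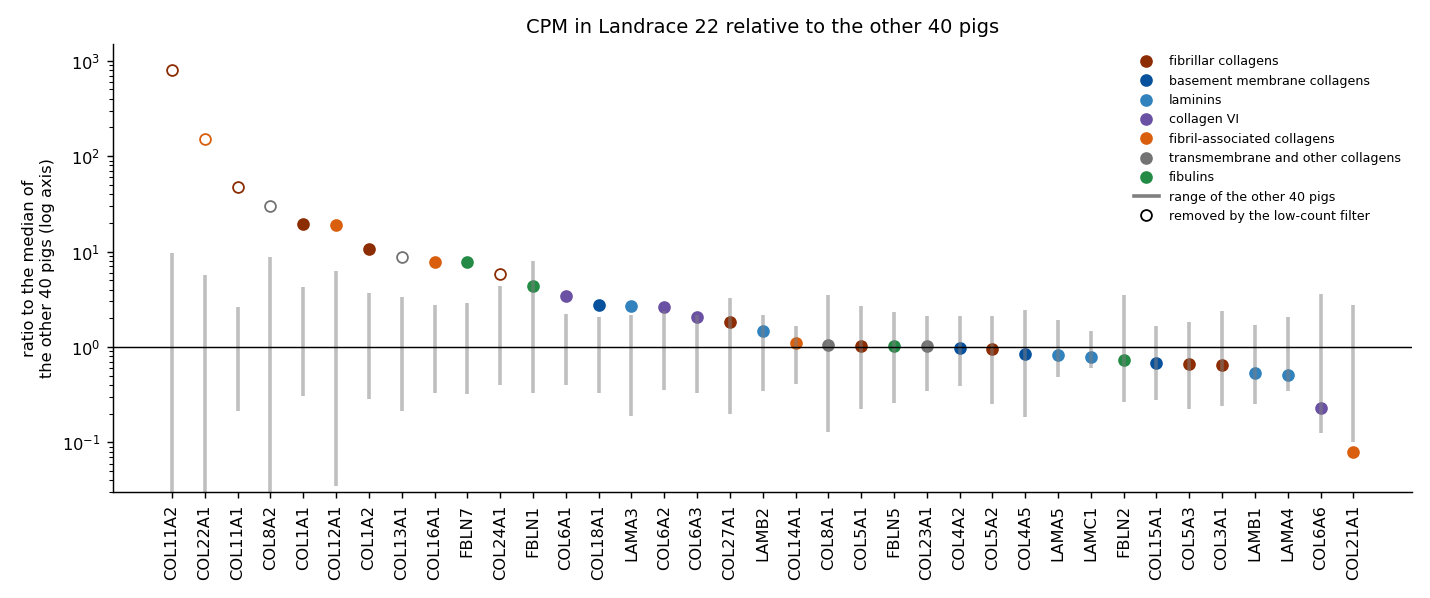
Level of collagen, laminin and fibulin genes in Landrace 22 as a ratio to the median of the other 40 pigs, on a log axis. Grey bars span the range of the other 40 pigs (cut off at the lower edge where the lowest pig had 0 counts), filled points are 31 of the 32 tested members and open points are 6 members removed by the low-count filter. COL1A1 and COL12A1 lie at 19.3 and 19.1 times the median, whereas COL4A2 and COL5A1 lie at 0.97 and 1.03.

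To separate breed, RNA quality, age and FCR, which vary together in these pigs, all 4 were fitted at once with batch in edgeR's quasi-likelihood test, and the false discovery rate (FDR, Benjamini-Hochberg) was taken over all 11146 genes tested, with a threshold of 0.1. Coefficients are on the log2 scale with their standard error (SE).

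Breed: after adjustment, 20 of the 32 members were lower in Landrace than in Duroc and none was higher, while 17.5% of all genes tested were lower and 33.1% differed in either direction. The median breed coefficient of the members was -0.85, against -0.0024 over all genes. The 20 coefficients ran from -1.41 (FBLN7) to -0.39 (LAMC1), that is, from 0.377 to 0.762 of the Duroc level. Both kinds of matrix contributed, with 10 of 11 basement membrane genes (4 of 4 collagens and 6 of 7 laminins), 4 of 4 collagen VI chains and 4 of 7 fibrillar collagens lower. In whole muscle, fewer cells of a type and less RNA per cell cannot be told apart.

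Among the basement membrane collagens, COL4A2 (ENSSSCG00000009545, chr11:76996885-77161617, Sscrofa11.1), a chain of the type IV network found in all basement membranes, had 102 to 370 CPM in Duroc (median 190) and 68 to 278 CPM in Landrace (median 171). The breeds overlapped almost fully, and 19 of 28 Landrace pigs were below the Duroc median. With the other terms in the model the breed coefficient was -1.16 ± 0.17 (SE, edgeR FDR 8e-06, n = 41 pigs). COL18A1 (chr13:207907835-207984082), which carries the endostatin fragment at its end, had 5.18 to 18.4 CPM in Duroc (median 10.1) and 2.96 to 24.9 CPM in Landrace (median 8.18). Here 9 Landrace pigs lay below every Duroc pig, the highest Landrace value was that of Landrace 22, and the coefficient was -1.32 ± 0.32 (edgeR FDR 0.00284). COL4A5, a chain of the minor type IV networks, was also lower in Landrace (-1.10 ± 0.27, edgeR FDR 0.0033), and so was COL15A1, a related collagen that anchors basement membranes to the fibrils around them (-0.79 ± 0.25, edgeR FDR 0.0184).

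Laminins are trimers of an alpha, a beta and a gamma chain, and 6 of the 7 tested chains were lower in Landrace. LAMB2 (ENSSSCG00000011377, chr13:31738282-31750623), the beta 2 chain enriched at the neuromuscular synapse, had 35.4 to 117 CPM in Duroc (median 73.6) and 18.7 to 78.3 CPM in Landrace (median 48.6). The ranges overlapped, but 27 of 28 Landrace pigs were below the Duroc median, and the coefficient was -1.01 ± 0.16 (edgeR FDR 1.9e-05). LAMA5 (ENSSSCG00000032761, chr17:61698370-61747795), an alpha chain of vascular and synaptic basement membranes, had 11.3 to 30.7 CPM in Duroc (median 22.5) and 7.67 to 21.8 CPM in Landrace (median 15.1). All 28 Landrace pigs were below the Duroc median (coefficient -0.82 ± 0.16, edgeR FDR 0.000291). LAMA4, the other vascular alpha chain, and LAMB1, the common beta chain, had coefficients of -0.86 ± 0.25 and -0.82 ± 0.27 (edgeR FDR 0.0125 and 0.0238), although the Landrace median of LAMA4 was slightly above the Duroc median (14.3 and 13.3 CPM). LAMC1, the gamma chain shared by most laminins, moved least of the 20 (-0.39 ± 0.11, edgeR FDR 0.0097) and was the least variable tested basement membrane gene (SD 0.307 on the log2 CPM scale). LAMA3, an epithelial chain, was just inside the threshold (-0.75 ± 0.34, edgeR FDR 0.099).

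Of the fibrillar collagens, the 3 type V chains and COL27A1 were lower in Landrace. COL5A3 (chr2:68828197-68869914) had 14.8 to 49 CPM in Duroc (median 40.9) and 6.37 to 52 CPM in Landrace (median 27.2), with 24 of 28 Landrace pigs below the Duroc median and a coefficient of -0.94 ± 0.26 (edgeR FDR 0.00826). COL5A1, which starts type I fibrils, and COL5A2 had -1.18 ± 0.41 and -0.94 ± 0.36 (edgeR FDR 0.0325 and 0.0482), and COL27A1, a cartilage fibril collagen present here at low level, had -1.26 ± 0.34 (edgeR FDR 0.00676). The main fibril chains did not pass the test. COL3A1 (ENSSSCG00000016034, chr15:93556914-93595678) had 157 to 1485 CPM in Duroc (median 712) and 165 to 1562 CPM in Landrace (median 633), and its coefficient was -0.84 ± 0.39 (edgeR FDR 0.107). COL1A1 (ENSSSCG00000036135, chr12:26379087-26397180) had 221 to 2086 CPM in Duroc (median 497) and 151 to 9531 CPM in Landrace (median 458). Its values overlapped widely, and the coefficient was -1.01 ± 0.72 (edgeR FDR 0.313), while that of COL1A2 (chr9:74174484-74210407) was -0.66 ± 0.66 (edgeR FDR 0.493). Without Landrace 22 all 7 fibrillar collagens were called lower, with -1.28 for COL1A1 (edgeR FDR 0.0107), -0.98 for COL1A2 (0.0538) and -0.85 for COL3A1 (0.0981), and the count over all members was 25, with 18.2% of all genes lower in that fit.

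All 4 tested chains of collagen VI, whose main 3 chains are mutated in congenital muscular dystrophies, were lower in Landrace. COL6A2 had 34.5 to 159 CPM in Duroc (median 91.2) and 23.6 to 175 CPM in Landrace (median 63.6), and its coefficient was -1.11 ± 0.34 (edgeR FDR 0.014). COL6A1 and COL6A3 had -0.72 ± 0.29 and -0.88 ± 0.34 (edgeR FDR 0.0629 and 0.0536), and COL6A6, a minor chain that can replace the alpha 3 chain, had -1.28 ± 0.44 (edgeR FDR 0.0297). Among the fibril-associated collagens COL21A1 alone was called (-1.27 ± 0.43, edgeR FDR 0.0255), with coefficients from -0.79 to -0.28 for COL12A1, COL14A1 and COL16A1. Without Landrace 22, COL12A1 (-1.39, edgeR FDR 0.0812) and COL16A1 (-0.95, edgeR FDR 0.0249) were called as well. FBLN7 (chr3:44215037-44266984), a cell-adhesive fibulin, had the lowest coefficient of all members (-1.41 ± 0.42, edgeR FDR 0.012). It had 1.74 to 7.41 CPM in Duroc (median 4.43) and 0.836 to 20.1 CPM in Landrace (median 2.35), with 26 of 28 Landrace pigs below the Duroc median and Landrace 22 at the top. FBLN1, FBLN2 and FBLN5, the fibulins of basement membranes and elastic fibres, had -0.79 ± 0.58, -0.67 ± 0.39 and -0.48 ± 0.33 and were not called. COL23A1, a transmembrane collagen, was the only member with a coefficient above 0 (0.17 ± 0.25, edgeR FDR 0.666).

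**Figure D2:**
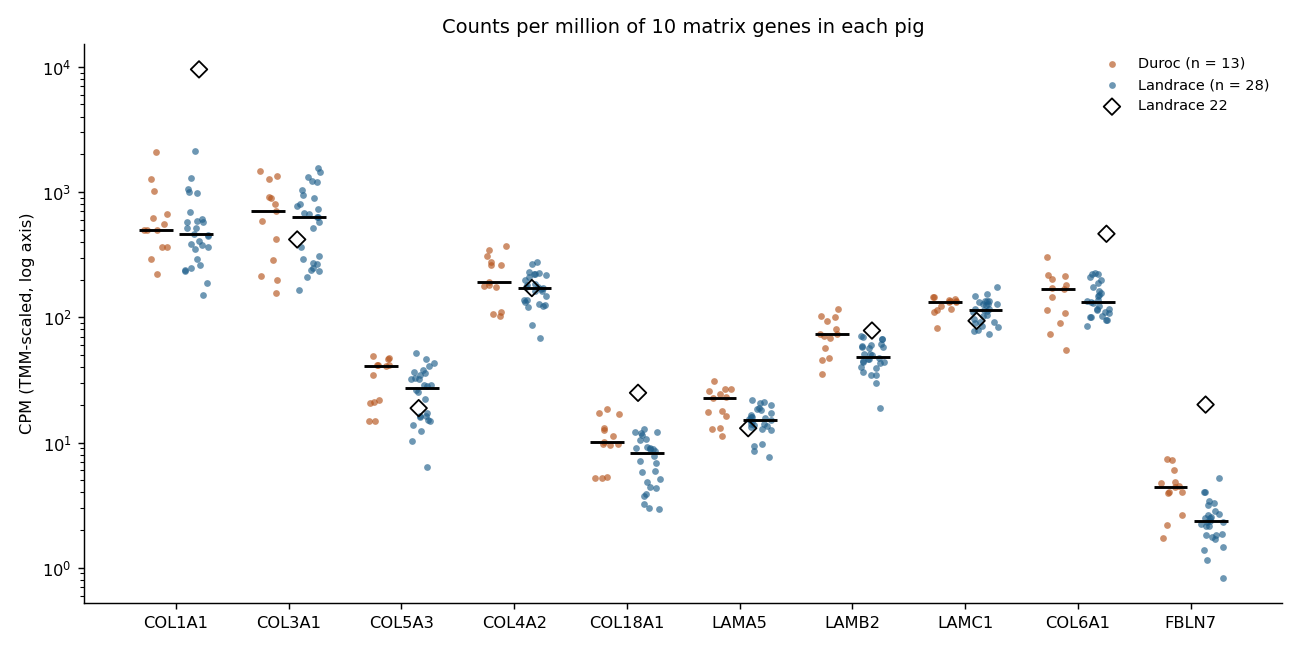
CPM of 10 members in each of 13 Duroc and 28 Landrace pigs, on a log axis, with horizontal lines at the breed medians and open diamonds for Landrace 22. For all 10 genes the breeds overlap and the Landrace median is lower, for example in LAMB2 (73.6 against 48.6 CPM), LAMA5 (22.5 against 15.1 CPM) and FBLN7 (4.43 against 2.35 CPM).

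The size of the breed difference depended on the terms in the model. In the unadjusted CPM the breeds overlapped for every member, which was not compared with the share over all genes. The ratio of the Landrace to the Duroc median was 0.53 to 1.22 (median 0.832), below 1 for 28 of 32 members. With breed as the only term, 3 members were called (LAMB2, LAMA5 and COL4A5, all lower in Landrace) and the median coefficient was -0.13, with 23 of 32 below 0, while 10.2% of all genes were called lower. With age left out of the joint model, 9 members were called and the median was -0.46, with 14.7% of all genes called lower. Among the 25 pigs of the shared age range of 147 to 156 days (7 Duroc and 18 Landrace), 14 of the 20 members were still called, all lower in Landrace, against 11.3% of all genes, and the median was -0.78. In these pigs COL4A2 had 110 to 370 CPM in Duroc (median 275) and 68 to 278 CPM in Landrace (median 169), and LAMB2 had 35.4 to 117 CPM (median 73.9) and 30.1 to 70.3 CPM (median 46.8). Over the 32 members the ratio of the Landrace to the Duroc median in these pigs was 0.519 to 1.34 (median 0.82), below 1 for 23, so the unadjusted difference at the median was about that of all pigs. Fitted within batches, 6 members were called in batch 2 (5 lower and 1 higher, COL11A1), 0 in batch 3 and 15, all lower, in batch 5, where 6.85%, 0% and 5.35% of all genes were lower, while batches 1 and 4 held too few pigs for the model.

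**Figure D3:**
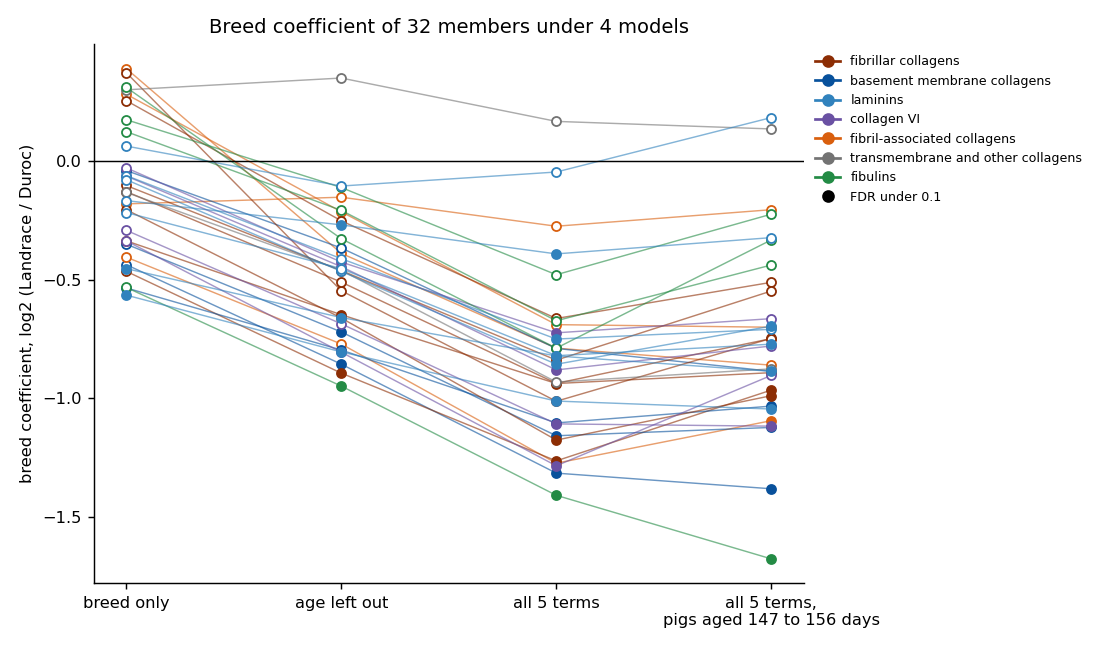
Breed coefficient (log2 of Landrace over Duroc) of the 32 tested members under 4 models: breed as the only term, the joint model without age, the joint model, and the joint model in the 25 pigs aged 147 to 156 days. Each line is a gene, coloured by class, and filled points have FDR under 0.1. The median moves from -0.13 to -0.46, -0.85 and -0.78.

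Lists of genes that work with these proteins are read against the 17.5% of all genes that were lower in Landrace and the 15.6% that were higher. Of 11 tested basement membrane partners 7 were lower in Landrace and 1 was higher, among them peroxidasin (PXDN, -1.24 ± 0.25, edgeR FDR 0.000425), which crosslinks type IV collagen, nidogen 2 (NID2, -1.30 ± 0.27, edgeR FDR 0.000657), which joins laminin to it, and agrin (AGRN, -0.80 ± 0.18, edgeR FDR 0.00128). Of 23 genes of collagen folding and crosslinking 9 were lower and none was higher, including the collagen chaperone SERPINH1 (-0.94 ± 0.18, edgeR FDR 0.000324), the prolyl hydroxylase P3H1 (-0.63 ± 0.11, edgeR FDR 0.000145) and the lysyl hydroxylase PLOD1 (-0.57 ± 0.11, edgeR FDR 0.000299). Among fibril proteoglycans and interstitial glycoproteins 11 of 27 were lower and none was higher, among them thrombospondin 2 (THBS2, -4.10 ± 0.88, edgeR FDR 0.000942), with medians of 53.5 CPM in Duroc and 2.37 CPM in Landrace. Biglycan (BGN, -1.45 ± 0.30, edgeR FDR 0.00068) and elastin (ELN, -1.66 ± 0.43, edgeR FDR 0.00486) were in the same list. Of the matrix receptors 13 of 22 were lower and 1 was higher, led by the integrin chains ITGB4 (-2.07 ± 0.46) and ITGA6 (-1.45 ± 0.40), which form a laminin receptor. The turnover list had 8 of 13 lower, and the list of transforming growth factor genes 3 of 15 lower and 2 higher, close to the shares over all genes.

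Markers of vascular cells moved with breed as well. Of the endothelial markers 6 of 7 tested were lower in Landrace and none was higher, with a summed level of 72.4 to 207 CPM in Duroc (median 157) and 39.8 to 177 CPM in Landrace (median 109). All 6 tested markers of mural cells, the pericytes and smooth muscle around vessels, were lower, with sums of 112 to 400 CPM (median 248) and 76 to 359 CPM (median 173). For fibroblasts, 2 of 6 markers were lower and the sums were alike (76.6 to 411 CPM, median 259, and 121 to 561 CPM, median 258), whereas all 3 fast-fibre genes were higher in Landrace, with sums of 18629 to 48205 CPM (median 24437) and 15108 to 67796 CPM (median 29325). Of the slow-fibre genes 1 of 5 was lower, and of the satellite cell markers 2 of 4 were lower and 1 was higher. Adipocyte (1 of 3), leukocyte (1 of 6), Schwann cell (1 of 2) and tendon (0 of 2) markers had few called lower and none higher. None of these markers was at 0 in all pigs, and their part in the breed difference was not tested.

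RNA integrity: 15 of the 32 members rose with RIN and none fell, against 23.9% of all genes tested that rose and 51.8% that changed in either direction. The median coefficient was 0.38 per RIN unit for the members and -0.01 over all genes, and those of the 15 ran from 0.32 (LAMC1) to 1.68 (COL21A1). Fibrillar collagens contributed 4 of 7, laminins 4 of 7, fibril-associated collagens 2 of 4, fibulins 2 of 4, basement membrane collagens 1 of 4 and collagen VI 1 of 4. The median coefficient was 0.60 for the fibrillar collagens and 0.14 for the 11 basement membrane genes, a difference that was not tested.

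COL3A1 rose with RIN. It had 240 to 418 CPM (median 277) in the 6 pigs with RIN below 7.5, 157 to 1562 CPM (median 467) in the 14 pigs with RIN from 7.5 to 8, and 199 to 1485 CPM (median 809) in the 21 pigs above 8. No pig below 7.5 reached the median of the middle group. The pigs below 7.5, except Landrace 1, were all from batch 5, so RIN and batch go together in these unadjusted levels. With batch in the model the coefficient was 0.93 ± 0.29 per RIN unit (edgeR FDR 0.00868). The type V chains went the same way, with 1.03 ± 0.32 for COL5A1 (edgeR FDR 0.0076), 0.89 ± 0.27 for COL5A2 (0.00788) and 0.60 ± 0.20 for COL5A3 (0.0154). Median COL5A1 levels over the same 3 RIN groups were 18, 24.3 and 49.8 CPM. COL3A1 and COL5A2 are neighbours on chromosome 15, with 16177 bases between them.

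For the type I chains the coefficients moved with Landrace 22, and the call for COL1A2 changed with it. COL1A1 had a coefficient of -0.40 ± 0.60 per RIN unit (edgeR FDR 0.611) with all pigs and 0.40 (edgeR FDR 0.259) without it, and COL1A2 had 0.27 ± 0.54 (0.716) and 0.83 (0.0185). In pigs with RIN below 7.5, COL1A1 ran from 151 to 9531 CPM (median 365, n = 6) with Landrace 22 and from 151 to 575 CPM (median 234, n = 5) without it. Without this pig 21 members rose with RIN, against 27.4% of all genes, the added ones being COL1A2, COL27A1, COL6A2, COL6A3, COL12A1 and COL16A1.

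In the basement membrane, the laminin chains LAMC1 (0.32 ± 0.09, edgeR FDR 0.00269), LAMB2 (0.37 ± 0.13, 0.0181), LAMB1 (0.54 ± 0.21, 0.0315) and LAMA4 (0.51 ± 0.20, 0.0315) rose with RIN. LAMC1 had 73 to 123 CPM (median 87.2) in the pigs below RIN 7.5 and 97.1 to 176 CPM (median 134) in those above 8, so the groups overlapped only in part. LAMA5 did not pass (0.03 ± 0.12, edgeR FDR 0.851), nor did COL4A2 (-0.22 ± 0.12, 0.136) or COL18A1 (-0.07 ± 0.24, 0.835), and COL15A1 was just inside the threshold (0.38 ± 0.19, 0.0961). The steepest slopes belonged to COL21A1, a fibril-associated collagen of vessel walls (1.68 ± 0.39, edgeR FDR 0.000617), and COL6A6 (1.59 ± 0.38, 0.000892). COL6A6 had 0.66 to 1.73 CPM (median 0.863) in the pigs below RIN 7.5 and 0.742 to 10.3 CPM (median 4.91) in those above 8. COL14A1, a fibril-associated collagen of the muscle sheaths, rose as well (0.55 ± 0.15, edgeR FDR 0.00276), with COL8A1 of vessel walls (0.82 ± 0.36, 0.0578) and the fibulins FBLN2 (0.67 ± 0.29, 0.0606) and FBLN5 (0.69 ± 0.25, 0.0205).

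**Figure D4:**
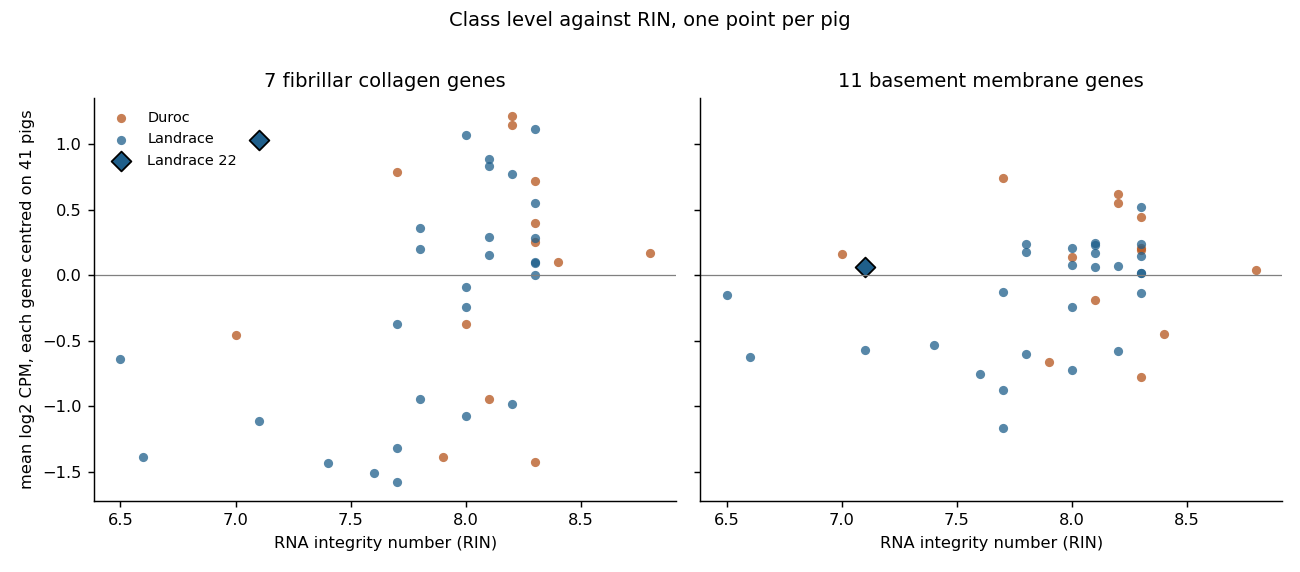
Mean log2 CPM of the 7 tested fibrillar collagens (left) and the 11 tested basement membrane genes (right) against RIN, each gene centred on its median over 41 pigs, with 1 point per pig and a diamond for Landrace 22. The fibrillar level ran from -1.58 to 1.21 and the basement membrane level from -1.17 to 0.74, and among the 6 pigs with RIN below 7.5 Landrace 22 alone had a fibrillar level above 0.

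Levels of the fibrillar genes also spread more between pigs at the median, with an SD of 0.997 on the log2 CPM scale (0.723 to 1.10 over 7 genes), against 0.649 (0.307 to 0.81) for the basement membrane genes (11 genes) and 0.348 over all genes tested. The 15 RIN calls were accompanied by 3 of 6 fibroblast markers that rose, 0 of 7 endothelial and 0 of 6 mural markers, and by all 5 slow-fibre and all 3 fast-fibre genes, which fell, and the part of these in the result was not tested. Among partner genes, perlecan (HSPG2, 0.72 ± 0.18, edgeR FDR 0.00146), fibrillin 1 (FBN1, 1.43 ± 0.39, 0.00324), fibronectin (FN1, 1.41 ± 0.41, 0.00469) and lumican (LUM, 1.06 ± 0.25, 0.000717) rose with RIN. Over all genes 23.9% rose with RIN and 27.9% fell. Over whole lists, 7 of 27 proteoglycans and glycoproteins rose, close to that share, and none fell, 4 of 11 basement membrane partners rose and 1 fell, and 3 of 23 folding and crosslinking genes rose, a lower share than over all genes, and 3 fell. The matrix receptors had 8 of 22 that rose and 2 that fell, the turnover list 4 and 3 of 13, and the transforming growth factor list 6 and 1 of 15. Scaling by library size alone moved the median of all genes to 0.30 per RIN unit, and the members then lay at 0.65 with 20 called, while 55.8% of all genes were called higher. In the 28 Landrace pigs 11 of the 15 were called, against 19.8% of all genes that rose, and 13 members in batch 2, against 15.8%. No member was called in the 13 Duroc pigs or in batch 3, where 0% of all genes rose, or in batch 5, where 11.6% rose. The difference of the RIN slopes between breeds was not significant for any member (edgeR FDR under 0.1 for 0 of 32 and for 0% of all genes). The smallest p belonged to LAMC1 (slope difference 0.35 ± 0.17, p = 0.0511, edgeR FDR 0.947) and COL12A1 (-3.00 ± 1.59, p = 0.0678), the latter at -0.22 without Landrace 22.

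Of the 32 members 20 were called for breed and 15 for RIN, and the share of all genes called for both was not computed. The calls met in 10 members: the 3 type V chains, COL15A1, COL21A1, COL6A6, LAMA4, LAMB1, LAMB2 and LAMC1. Another 10 were called for breed without a RIN call, among them COL4A2, COL4A5, COL18A1, LAMA5, FBLN7 and the 3 main chains of collagen VI, and 5 for RIN without a breed call (COL3A1, COL14A1, COL8A1, FBLN2 and FBLN5).

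**Figure D5:**
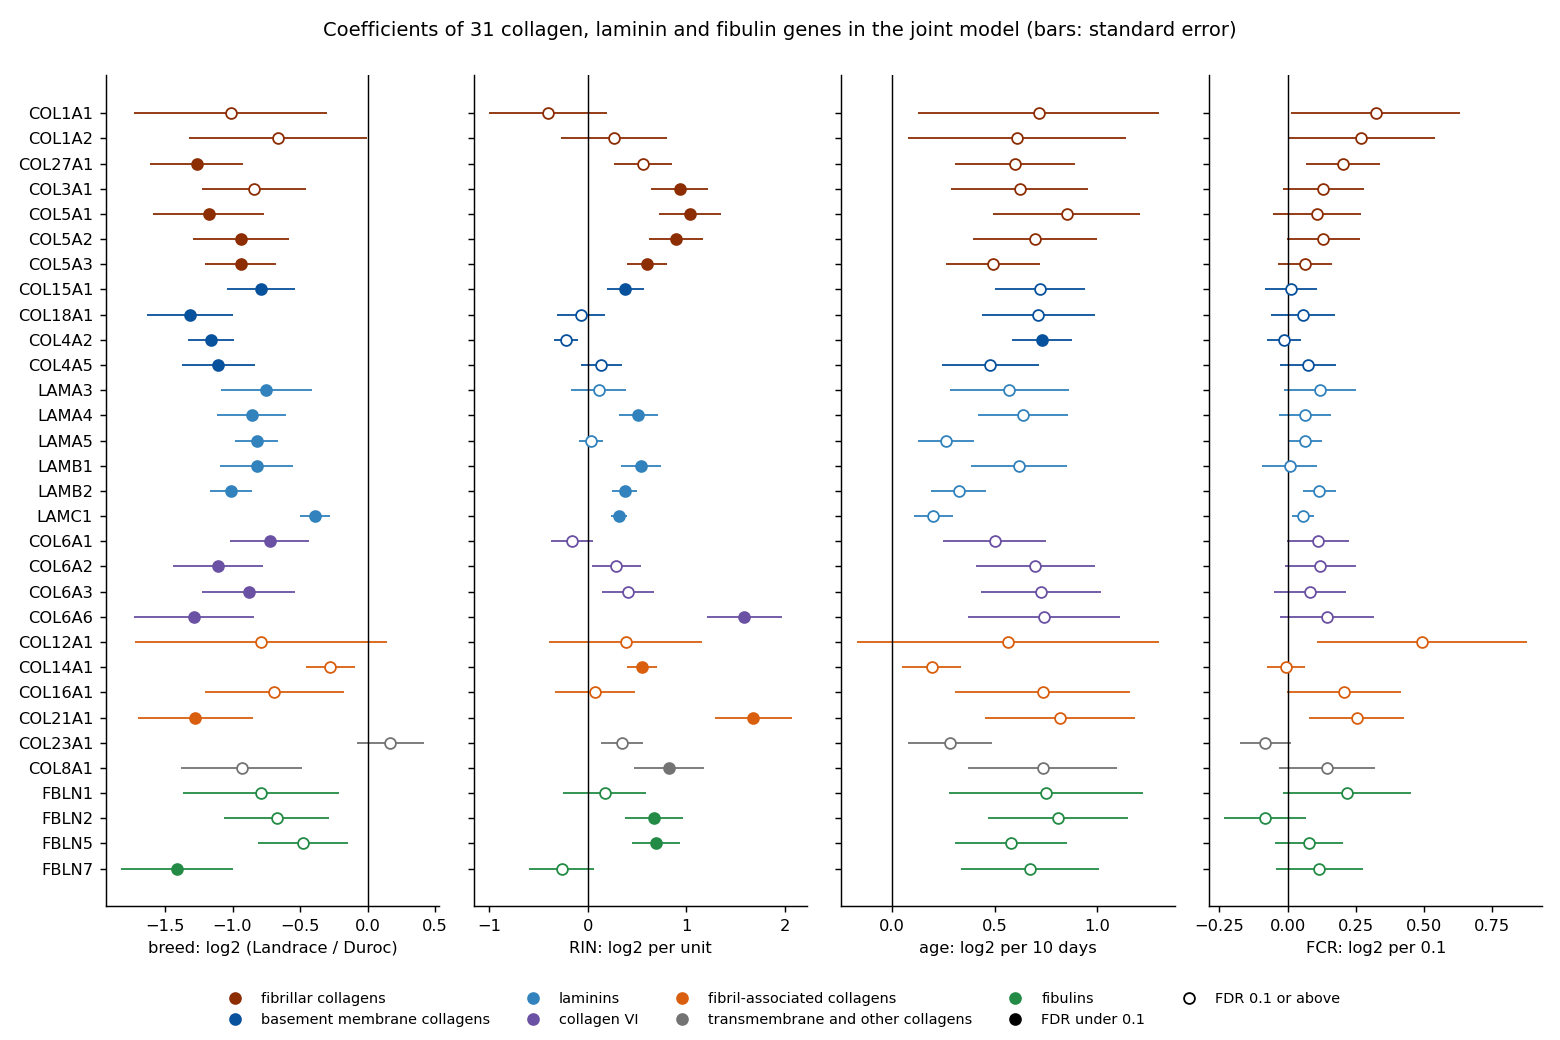
Coefficients of breed, RIN (per unit), age (per 10 days) and FCR (per 0.1) for 31 of the 32 tested members from the joint edgeR model, coloured by class, with bars of 1 standard error and filled points for FDR under 0.1. There are 20 filled points for breed, all below 0, 15 for RIN, all above 0, 1 for age (COL4A2, 0.73) and 0 for FCR.

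Age: with breed, RIN, FCR and batch held, 1 member rose with age, COL4A2 (0.73 ± 0.15 per 10 days, edgeR FDR 0.0366), and none fell, against 1.03% of all genes tested that rose. The coefficients of 31 of 32 members were above 0, with a median of 0.63 per 10 days against -0.0055 over all genes, and 17 members had an unadjusted p below 0.05, as did 16% of all genes. After COL4A2 the smallest p values were those of COL15A1 (0.72 ± 0.22, p = 0.00212, edgeR FDR 0.107) and LAMA4 (0.64 ± 0.22, p = 0.00575, edgeR FDR 0.151). The main fibril chains had similar coefficients with wider errors, 0.62 ± 0.33 for COL3A1, 0.72 ± 0.59 for COL1A1 and 0.61 ± 0.53 for COL1A2, and 0.63, 0.79 and 0.75 without Landrace 22. In unadjusted values COL4A2 had 102 to 261 CPM (median 178) in the 6 Duroc pigs younger than the shared range and 110 to 370 CPM (median 275) in the 7 within it. In Landrace it had 68 to 278 CPM (median 169) in the 18 pigs within the range and 120 to 228 CPM (median 173) in the 10 older pigs. The unadjusted median thus rose in Duroc and hardly in Landrace. All 4 Duroc pigs of batch 5 were within the shared range, so age and batch cannot be told apart in the Duroc medians. A difference of the age slopes between breeds was not tested.
The count depended on the model, with 11 members called when FCR was left out (3.84% of all genes rose), 5 by DESeq2 (2.95% of its genes rose), 4 by limma (1.61%) and 0 within either breed, in batches 3 and 5 or in the shared age range (0% of all genes in each). Leaving out 1 pig gave 0 to 5 members, with 5 without Landrace 22 (1.78% of all genes rose). None was called without Duroc 13, the youngest pig (131 days), and in that fit 0% of all genes rose and 0% fell.

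Feed conversion ratio: the question the study was designed for gave no call among the matrix genes. Of the 32 members 0 passed, as did 0% of all genes tested in edgeR, and 0 had an unadjusted p below 0.05, against 8.68% of all genes. DESeq2 and limma also called 0 members (0.0464% and 0% of their genes in either direction). The coefficients lay between -0.08 and 0.49 per 0.1 FCR, with a median of 0.11 against 0.0027 over all genes, and 28 of 32 were above 0. Without Landrace 22 they lay between -0.09 and 0.27, with a median of 0.07 and 26 above 0, and COL12A1, the highest with all pigs, was at 0.25. With age left out of the model the median was 0.19, 31 were above 0 and 4 had an unadjusted p below 0.05, a share close to the 12.2% of all genes, with 0 called. With all pigs and terms, their SE was 0.0417 for LAMC1, 0.13 at the median and 0.385 for COL12A1.

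LAMB2 had the smallest p (0.12 ± 0.06 per 0.1 FCR, p = 0.0634, edgeR FDR 0.593), followed by COL27A1 (0.20 ± 0.13, p = 0.14, edgeR FDR 0.671) and COL21A1 (0.25 ± 0.17, p = 0.155, edgeR FDR 0.674). In Duroc, LAMB2 had 35.4 to 73.9 CPM (median 57.2) in the 7 pigs at or below the breed's median FCR and 71.5 to 117 CPM (median 96.8) in the 6 above it. Those Duroc groups overlapped only at their edges. In Landrace the same split gave 34.4 to 70.3 CPM (median 46) in 15 pigs and 18.7 to 78.3 CPM (median 57.8) in 13, which overlapped widely. Fitted within the breeds, the LAMB2 coefficient was 0.23 ± 0.09 in Duroc (p = 0.0374, edgeR FDR 0.786) and 0.04 ± 0.09 in Landrace (p = 0.667, edgeR FDR 0.9999). LAMC1 had 0.11 ± 0.05 in Landrace (p = 0.0496, edgeR FDR 0.904) and 0.08 ± 0.07 in Duroc (p = 0.301). The difference of the FCR slopes between breeds was not significant for LAMB2 (-0.14 ± 0.12, p = 0.252) or for any other member. The smallest p values there were those of COL23A1 (-0.36 ± 0.18, p = 0.0498, edgeR FDR 0.922) and LAMA5 (-0.23 ± 0.12, p = 0.0525, edgeR FDR 0.922). The main fibril chains had 0.32 ± 0.31 (COL1A1), 0.27 ± 0.27 (COL1A2) and 0.13 ± 0.15 (COL3A1), which without Landrace 22 were 0.12, 0.09 and 0.12, and COL4A2 had -0.01 ± 0.06.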

How the data were processed

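Per the study's methods, the authors used Trimmomatic 0.39 on read pairs of 100 bases (BGISEQ-500, unstranded), and STAR 2.7.1a for both the alignment to Sscrofa11.1 and the counting of pairs per gene of Ensembl 96. The deposited values were raw counts, without normalization. The column for unstranded counting was used, so overlapping and antisense genes cannot be told apart. The 4 summary rows were left out: 1.49 to 2.29% of pairs were unmapped, 2.48 to 3.75% multimapping, 7.53 to 16.2% in no gene and 6.79 to 8.89% ambiguous. Counts were filtered with filterByExpr (minimum count 10), scaled by TMM and tested with edgeR 4.0.16 (legacy quasi-likelihood form, R 4.3.3), with terms for FCR, RIN, age, breed and batch (5 levels). CPM use TMM library sizes. Class levels are means of log2(CPM + 0.04), with each gene centred on its median over the pigs.

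Symbols came from an Ensembl table (14857 of 25880 genes had one) and positions from RefSeq on Sscrofa11.1. Members and lists were chosen with earlier results of these data known. Core members were named whatever their result, with other members called (at most 10 a term) and, where none was called, the 3 with the smallest p. Of partner lists up to 3 genes by p were named. COL16A1 and the genes added without a pig or in a batch were named after their values were seen. In simulated data with a known set of genes changed by 1 log2 unit, edgeR recovered 91.9% of 198 tested for breed and 96% for RIN (11115 genes), with 9 and 10% of calls false. The changed genes were drawn at random from all genes, whose median SD was 0.348 on the log2 CPM scale. It was 0.997 for the fibrillar collagens and 0.649 for the basement membrane genes, so recovery among the members was not measured. Compared pair by pair (820 pairs), no library matched another within counting noise (lowest chi-square per degree of freedom 17.2). For 1 tested member, values are not reported here. Nothing in the labels gives litters, so p-values measure the spread between these pigs.

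Alternatives were DESeq2 1.42.0 and limma 3.58.1 with voom, other scalings and filters, terms left out, single breeds and batches, and each pig left out. The shared age range, breed as the only term and batch 5 without Landrace 22 were added after seeing the data. Tests were two-sided. Correlations used 100000 permutations (SciPy 1.17.1).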

Additional observations from a re-analysis of the deposited data

How the results depend on the processing

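Against 20 breed calls (17.5% of all genes lower), there were 9 with age left out (14.7%) and 3 with breed as the only term (10.2%). Batch 2 gave 6 (5 of the 20, with 6.85% of all genes lower, and COL11A1, higher) and batch 3 gave 0 (0%). Each pig left out in turn gave 16 (without Duroc 6, 14.1% of all genes lower) to 25 (without Landrace 22, 18.2%). RIN calls were 0 in Duroc alone and in batch 3 (0% of all genes rose) and 0 in batch 5 (11.6%). Without Landrace 22 batch 5 gave 1, COL14A1. With each pig left out there were 13 (without Duroc 5 or Landrace 27, 22.9% and 21.4% of all genes rose) to 21 (without Landrace 22, 27.4%). Age calls were 5 with DESeq2 (2.95% of its genes rose), 4 with limma (1.61%) and 11 with FCR left out (3.84%). They were 2 with RLE scaling, 6 with batch as a number and 3 in batch 2, fits whose shares over all genes are not given here. No member was called in Landrace alone, Duroc alone, batch 3, batch 5 or the shared age range (0% of all genes in each), or in batch 5 without Landrace 22. Leave-one-out gave 0 (without Duroc 13, 0% of all genes) to 5 (without Landrace 22, 1.78% of all genes rose). FCR calls stayed at 0 in all alternatives run. The cause of these changes was not tested, except that the single-breed and single-batch fits have fewer pigs. Other alternatives gave 14 breed calls (shared age range, 11.3% of all genes lower) to 23 (without a filter, and with library size only, where 3596 of 11146 genes were lower). Their RIN calls were 11 (Landrace alone, 19.8% of all genes rose) to 20 (library size only, 55.8%). These included a fall of COL4A2 with batch as a number and of COL2A1 and COL22A1 without a filter. No called member changed sign under any alternative. Counted over genes and alternatives without the single pigs left out, 232 breed values passed and 72 did not, and 179 and 65 for RIN. No paired analysis was possible because the replicate numbers do not pair the breeds. Some members had few counts, such as LAMA3 (4 to 52 per pig) and COL21A1 (3 to 140), and the part of depth in their results was not tested.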

Other observations

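The partner chains examined rose and fell together across the 41 pigs, before any adjustment, and so did a pair from different proteins. The type I chains COL1A1 and COL1A2 had a Pearson correlation of 0.941 in log2 CPM (permutation p = 1e-05, the smallest 100000 permutations can give, and Benjamini-Hochberg p 2e-05 over 8 correlations) and a Spearman rho of 0.93 (p = 1e-05). It was 0.916 without the 2 pigs farthest from the median of COL1A1, 0.925 without Landrace 22, and 0.885, 0.897 and 0.983 within batches 2, 3 and 5. COL6A1 and COL6A2 had a correlation of 0.881 (permutation p = 1e-05) and a rho of 0.92 (p = 1e-05), 0.897 without the 2 farthest pigs and 0.882 to 0.957 within these batches. LAMB2 and LAMC1, beta and gamma chains of the same laminins, were less close (0.594, permutation p = 5e-05, rho 0.605, p = 8e-05), at 0.518 without the 2 farthest pigs and 0.395, 0.757 and 0.759 within batches 2, 3 and 5. The fibril chain COL3A1 and the basement membrane chain COL4A2 had 0.542 (permutation p = 0.00032, rho 0.559, p = 0.00019), 0.491 without the 2 farthest pigs and 0.52 to 0.691 within batches. All of these levels share a library and its scaling.

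The balance of the matrix also differed between pigs. The fibrillar level minus the basement membrane level, on the log2 scale, ran from -0.90 in Landrace 21 to 0.97 in Landrace 22, with medians of 0.04 in Duroc and -0.03 in Landrace. By RIN its median was -0.58 in the 6 pigs below 7.5 (-0.62 without Landrace 22), -0.20 in the 14 pigs from 7.5 to 8 and 0.20 in the 21 pigs above 8. The collagen VI level had medians of 0.36 in Duroc and 0.00 in Landrace.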
